A study of Mus musculus with 8 samples.

Results

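Dentate gyrus, CA1 and CA3 are the main neuronal subfields of the hippocampus, and 10 genes that mark them were followed in the hippocampus of wild-type and Mbd2-/- mice. The 4 dentate markers were Prox1, C1ql2, Dsp and Calb1, the 3 CA1 markers were Wfs1, Fibcd1 and Pou3f1, and the 3 CA3 markers were Bok, Cpne4 and Elavl2. They were taken by gene symbol from a table of 19201 genes, and all 10 were present. Total RNA was depleted of ribosomal RNA and sequenced from 4 wild-type and 4 Mbd2-/- libraries. Wild-type mice were C57BL/6 and Mbd2-/- mice carried the mutation on a C57BL/6 background, in the germline and so in every cell type. All mice were 10 to 12 weeks old, were bred as littermates from heterozygous parents and received no treatment. Each library pooled bilateral hippocampi from a pair of mice, and males and females were combined, so a library is a pool and not a single animal. The Mbd2-/- allele leaves the first exon of Mbd2 transcribed, which limits the check of the genotype by reads summed over the gene.

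The hippocampal circuit runs from dentate granule cells, whose mossy fibres contact CA3 pyramidal cells, and on through CA3 axons to CA1 pyramidal cells. Each of these cell types keeps its own set of transcription factors, calcium-binding proteins and synaptic proteins into adulthood, and subfield markers are used to tell the cell types apart in sections and in dissected tissue. Few of these markers are strictly private. Calb1 and Prox1 are also found in interneurons, Calb1 in part of the CA1 pyramidal cells, and Wfs1 in other forebrain neurons. Mbd2 itself is a protein that binds methylated CpG dinucleotides.

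In the Mbd2-/- hippocampi Bok was higher and Wfs1, Fibcd1 and Prox1 were lower than in wild-type, by an adjusted p under 0.05 from limma over all tested genes. The change was from 977 to 1405 normalized counts in Bok (reads divided by the size factor of the library), from 1595 to 1283 in Wfs1, from 2127 to 1747 in Fibcd1 and from 1641 to 1431 in Prox1. The other 6 markers were not called. A call of this kind was common in these data. Of 14504 genes tested, 22.0% were called, made up of 12.0% higher and 10.0% lower, and the 4 of 10 markers called have to be read against that background. In the same 4 markers the wild-type and Mbd2-/- libraries did not overlap, which 23.6% of all tested genes also showed. In no subfield were all markers called. Of the dentate markers 1 of 4 was called, of the CA1 markers 2 of 3 and of the CA3 markers 1 of 3, and the median log2 fold change of the 10 markers was -0.04, beside a median of -9.1e-05 over all genes tested. In whole tissue, fewer cells of a type and less RNA per cell cannot be told apart, and this holds for every result given here.

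**Figure D1:**
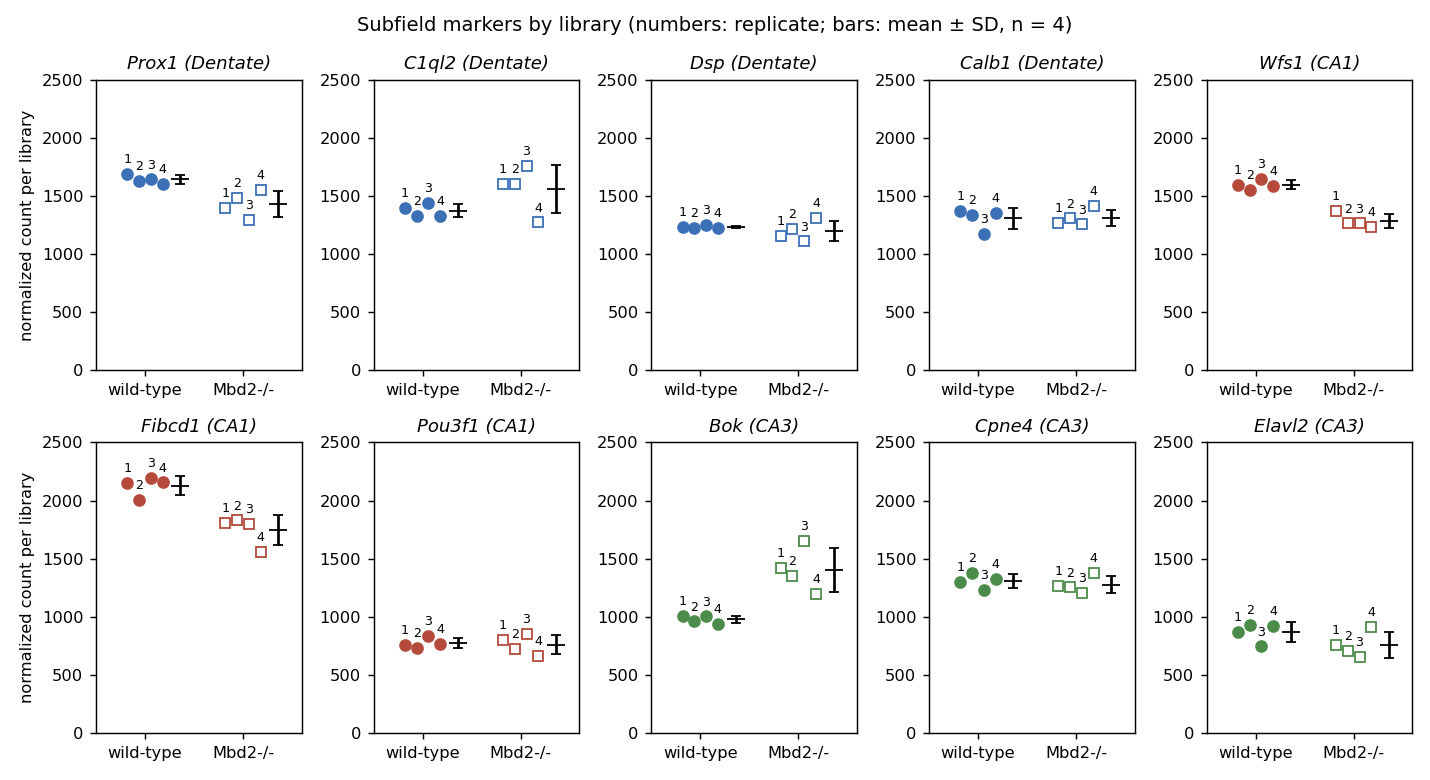
Normalized count of each of the 10 subfield markers (vertical axis, from 0) in each wild-type (filled circles) and Mbd2-/- (open squares) library, with the replicate number above each point and bars for the mean and SD of 4 libraries. Wfs1, Fibcd1, Prox1 and Bok are separated between the genotypes, and Mbd2-/- replicate 4 is the highest or the lowest Mbd2-/- library in every gene.

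Promoter sequence is shown for the 3 markers whose calls held under every alternative tried, since the protein missing from these mice reads methylated CpG. The windows are from RefSeq on GRCm38.p6 and run from 250 bases before to 50 bases after the start of the gene, 5′ to 3′ on the strand of the gene, with every CG in capitals. Methylation of these windows was not analysed here. The Wfs1 window lies at chr5:36988933-36989232 on the minus strand, the Fibcd1 window at chr2:31845956-31846255 on the minus strand and the Bok window at chr1:93685325-93685624 on the plus strand.
Wfs1: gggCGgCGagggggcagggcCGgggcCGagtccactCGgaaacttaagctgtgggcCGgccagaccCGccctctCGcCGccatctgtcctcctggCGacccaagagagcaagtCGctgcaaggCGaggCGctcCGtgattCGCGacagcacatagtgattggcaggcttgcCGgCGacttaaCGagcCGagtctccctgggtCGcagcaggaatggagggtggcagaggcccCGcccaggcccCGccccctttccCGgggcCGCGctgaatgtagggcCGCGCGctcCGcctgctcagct
Fibcd1: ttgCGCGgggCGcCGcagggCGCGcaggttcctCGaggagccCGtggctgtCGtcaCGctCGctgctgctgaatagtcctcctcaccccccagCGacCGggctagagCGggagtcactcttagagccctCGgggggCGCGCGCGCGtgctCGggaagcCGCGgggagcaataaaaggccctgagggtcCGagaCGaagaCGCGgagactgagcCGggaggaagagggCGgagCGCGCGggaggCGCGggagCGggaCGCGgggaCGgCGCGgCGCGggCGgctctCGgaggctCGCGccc
Bok: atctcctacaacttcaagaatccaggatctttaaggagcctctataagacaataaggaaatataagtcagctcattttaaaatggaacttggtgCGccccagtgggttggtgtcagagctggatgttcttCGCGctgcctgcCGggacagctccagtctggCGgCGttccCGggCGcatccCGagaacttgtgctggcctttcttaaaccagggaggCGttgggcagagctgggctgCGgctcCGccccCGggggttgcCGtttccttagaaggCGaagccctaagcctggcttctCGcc
The letters CG, which read the same on both strands, occurred 30 times in the Wfs1 window, 46 times in the Fibcd1 window and 16 times in the Bok window. Over all 32851 windows of this length the median was 7, and 94.6% of windows held at least 1 CG. The Fibcd1 window had more CG than 98.4% of all windows, the Wfs1 window more than 88.3% and the Bok window more than 67.0%. A window was found for 8 of the 10 markers, and not for Calb1 and Pou3f1. Among the markers with a single start, C1ql2 held 23 and Dsp 27, both not called, so these 2 lie between Bok and Wfs1 in CG number. Where several starts are listed the number varied with the start, from 14 to 25 over 2 starts of Prox1, from 10 to 27 over 6 starts of Elavl2 and from 1 to 14 over 2 starts of Cpne4. The count of CG is a description of sequence and not of methylation.

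Levels differed among the markers when expressed per transcript length. C1ql2 and Bok were the most abundant in wild-type hippocampi, with 54.5 ± 2.06 and 54.0 ± 1.70 RPKM (SD, n = 4 libraries, RPKM being reads per kilobase of the longest annotated transcript scaled to the library's total reads on genes), and their ranges overlapped. Fibcd1 with 35.5 ± 1.20 and Wfs1 with 35.5 ± 0.687 RPKM followed and could not be separated either. Below them came Prox1 with 31.5 ± 0.696, Cpne4 with 27.5 ± 1.44, Calb1 with 24.5 ± 1.77, Pou3f1 with 20.3 ± 1.08, Elavl2 with 16.4 ± 1.67 and Dsp with 10.2 ± 0.0764 RPKM, and each of these wild-type ranges lay clear of the next. In Mbd2-/- hippocampi Bok reached 76.9 ± 9.89 RPKM, above the mean of C1ql2 at 61.2 ± 7.82 although the ranges of the pair still overlapped. The neighbours from Wfs1 down to Calb1, which were separate in wild-type, overlapped in the Mbd2-/- libraries. All 10 markers were well expressed. Fibcd1, the highest by normalized count, was exceeded by 9.55% of the tested genes, and Pou3f1, the lowest, by 26.3%. Markers of all 3 subfields were thus present in every library, although few of them are private to 1 subfield.

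CA1 was examined first, since 2 of its 3 markers were called in the same direction. Wfs1 encodes wolframin, a membrane protein of the endoplasmic reticulum, and lies on chromosome 5 of mm9 from 37357343 to 37380221. Its normalized counts were 1592, 1555, 1646 and 1587 in wild-type replicates 1 to 4 and 1373, 1263, 1264 and 1232 in Mbd2-/- replicates 1 to 4. Every Mbd2-/- library was below every wild-type library. The log2 fold change was -0.31 with a standard error of 0.05 and a 95% interval from -0.43 to -0.20 (adjusted p = 7.93e-04, limma). The exact two-sided permutation test gave p = 0.0286, the smallest that 4 against 4 libraries allow, for Wfs1 and likewise for Fibcd1, Bok and Prox1. Fibcd1 encodes a membrane receptor that binds acetylated structures such as chitin, and it lies on chromosome 2 from 31668810 to 31701525. Its counts were 2152, 2006, 2193 and 2156 in wild-type and 1804, 1829, 1798 and 1555 in Mbd2-/- libraries. Again no library overlapped the other genotype, with the lowest value in Mbd2-/- replicate 4. The log2 fold change of Fibcd1 was -0.29 with a standard error of 0.06 and a 95% interval from -0.41 to -0.16 (adjusted p = 0.00318, limma).
Pou3f1, a POU-domain transcription factor on chromosome 4 from 124334896 to 124337899, did not follow the other two. It had counts of 754, 731, 833 and 766 in wild-type and 798, 721, 853 and 665 in Mbd2-/- libraries, and the genotypes overlapped. Its log2 fold change was -0.03 with a 95% interval from -0.19 to 0.13 (adjusted p = 0.832, limma), so a decrease as large as the point estimate of Wfs1 or Fibcd1 lies outside the interval. The ratio of Fibcd1 to Pou3f1 counts within a library was 2.76 ± 0.0974 in wild-type and 2.31 ± 0.179 in Mbd2-/- hippocampi (SD, n = 4), and that of Wfs1 to Pou3f1 was 2.07 ± 0.0683 and 1.70 ± 0.157 (SD, n = 4). Neither ratio overlapped between the genotypes. These ratios do not depend on how the libraries are scaled. They are not corrected for the trend on transcript length described below, and they reuse the counts given above.

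CA3 held the largest change of the 10 markers. Bok, a member of the Bcl-2 family of apoptosis regulators, lies on chromosome 1 from 95582271 to 95592339. Its normalized counts were 1006, 959, 1003 and 939 in wild-type and 1419, 1353, 1649.7 and 1197 in Mbd2-/- libraries. All Mbd2-/- libraries were above all wild-type libraries, and the spread among them was wider, with a coefficient of variation of 13.4% against 3.39%. The log2 fold change was 0.51 with a standard error of 0.08 and a 95% interval from 0.35 to 0.68 (adjusted p = 3.60e-04, limma). When a trend of fold change on transcript length was removed, it was 0.34 (adjusted p = 8.11e-04, limma). Of all tested genes, 97.6% had a lower log2 fold change than Bok.
Cpne4 and Elavl2 did not rise with Bok. Cpne4 encodes a copine, a calcium-dependent phospholipid-binding protein, on chromosome 9 from 104449616 to 104936874. Its counts of 1296, 1379.8, 1231 and 1328 in wild-type and 1264, 1253, 1203 and 1379 in Mbd2-/- libraries overlapped almost fully. The log2 fold change of Cpne4 was -0.04 with a 95% interval from -0.16 to 0.08 (adjusted p = 0.677, limma). Elavl2, a neuronal RNA-binding protein of the Hu family on chromosome 4 from 90917454 to 91066675, had 868, 929, 745 and 920.4 counts in wild-type and 755, 706, 652 and 911 in Mbd2-/- libraries. It was low in wild-type replicate 3 and high in Mbd2-/- replicate 4, and these libraries made the genotypes overlap. The log2 fold change of Elavl2 was -0.20 with a 95% interval from -0.40 to -0.003 (adjusted p = 0.135, limma). It passed the threshold without Mbd2-/- replicate 4 (-0.29, adjusted p = 0.00201, limma) and with the replicate number as a block (adjusted p = 0.0442, limma). The ratio of Bok to Cpne4 within a library was 0.748 ± 0.0569 in wild-type and 1.11 ± 0.206 in Mbd2-/- hippocampi (SD, n = 4), without overlap. The ratio of Bok to Elavl2 did overlap, with 1.02 to 1.35 in wild-type and 1.31 to 2.53 in Mbd2-/- libraries. Neither ratio was corrected for the trend on transcript length. The longest transcript has 1432 bases in Bok, 3771 in Cpne4 and 4191 in Elavl2.

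Of the dentate markers Prox1 was called and the other 3 were not. Prox1, the homeobox transcription factor that maintains granule cell identity, lies on chromosome 1 from 191945660 to 191994559. It had 1692, 1629, 1643 and 1602 normalized counts in wild-type and 1396, 1482, 1293 and 1552 in Mbd2-/- libraries, so that no libraries of the genotypes overlapped. Its log2 fold change was -0.20 with a standard error of 0.06 and a 95% interval from -0.33 to -0.08 (adjusted p = 0.0230, limma). This was the least stable of the 4 calls. Prox1 missed the threshold in limma without wild-type replicate 1 (adjusted p = 0.0773), wild-type replicate 2 (0.0503), wild-type replicate 3 (0.0625), Mbd2-/- replicate 1 (0.0685) or Mbd2-/- replicate 3 (0.0553), and when the mean-variance trend and robust moderation were dropped (0.0731).
C1ql2 encodes a secreted C1q-like protein that mossy fibres use to recruit kainate receptors, and lies on chromosome 1 from 122237159 to 122239748. Its counts were 1398, 1326, 1442 and 1326 in wild-type and 1605, 1600.4, 1758 and 1271 in Mbd2-/- libraries. Mbd2-/- replicates 1 to 3 were above every wild-type library and replicate 4 was below them all. Over all libraries C1ql2 was not called (log2 fold change 0.17, 95% interval from 0.01 to 0.34, adjusted p = 0.127, limma), and without Mbd2-/- replicate 4 it was called higher (0.27, adjusted p = 2.00e-04, limma). The ratio of Prox1 to C1ql2 within a library overlapped between the genotypes, with 1.14 to 1.23 in wild-type and 0.735 to 1.22 in Mbd2-/- libraries.
Dsp and Calb1 were close to equal in both genotypes. Dsp encodes desmoplakin, which ties desmosomes to intermediate filaments, on chromosome 13 from 38243197 to 38290446. It had 1232, 1225, 1249 and 1223 counts in wild-type libraries, the narrowest spread of the 10 markers with a coefficient of variation of 0.964%, and 1153, 1217, 1108 and 1313 in Mbd2-/- libraries. The Mbd2-/- values thus lay on both sides of the wild-type range, and the log2 fold change was -0.04 with a 95% interval from -0.17 to 0.08 (adjusted p = 0.630, limma). Calb1 encodes calbindin, a calcium buffer of granule cells, on chromosome 4 from 15808411 to 15835211. Its counts were 1369.9, 1338, 1172 and 1352 in wild-type and 1271, 1307, 1254 and 1413 in Mbd2-/- libraries. The log2 fold change of Calb1 was 0.005 with a 95% interval from -0.13 to 0.14 (adjusted p = 0.969, limma), and the interval does not reach the fold change of any called marker. The counting is not stated to use strand, and exons of Prox1 and Dsp overlap the annotated genes Gm17566 and Gm10129 on the opposite strand, so reads of such partners cannot be told apart.

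**Figure D2:**
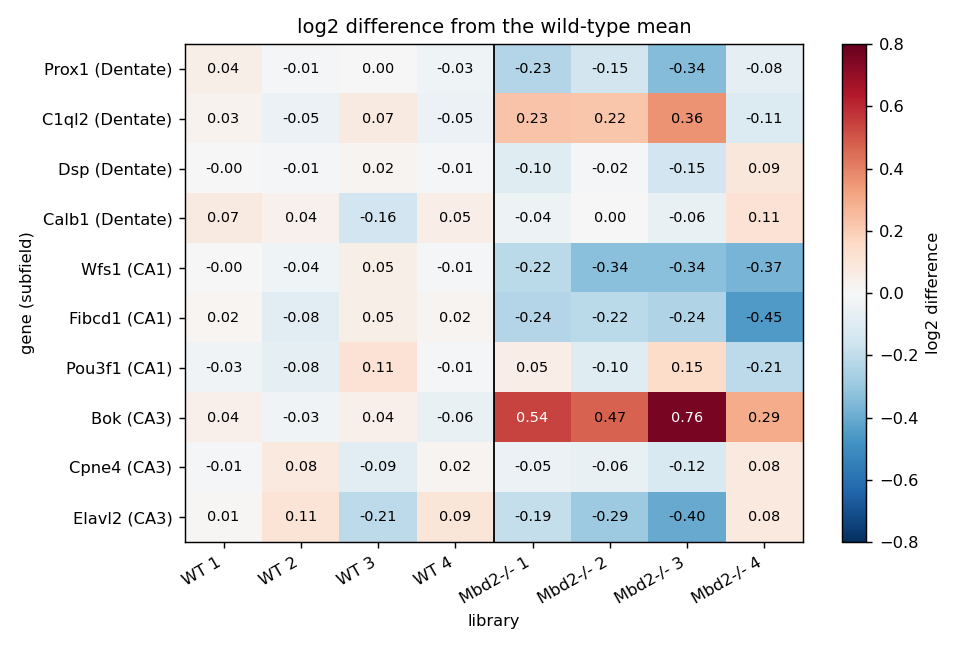
Difference of each library from the wild-type mean on the log2 scale, for the 10 markers (rows) in 4 wild-type and 4 Mbd2-/- libraries (columns), with the value printed in each cell. Bok is higher and Wfs1 and Fibcd1 are lower in all 4 Mbd2-/- columns, and the column of Mbd2-/- replicate 4 differs in sign from its neighbours in C1ql2, Dsp, Cpne4 and Elavl2.

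Mbd2-/- replicate 4 was examined separately, since it lay outside the range of the other 3 Mbd2-/- libraries in 10 of 10 markers, against 68.5% of all tested genes. Mbd2-/- replicate 3 and wild-type replicate 3 each lay outside the rest of their group in 8 of 10 markers, against 61.0% and 52.6% of all tested genes. Mbd2-/- replicate 4 was above the other Mbd2-/- libraries in Prox1, Dsp, Calb1, Cpne4 and Elavl2. It was below them in C1ql2, Wfs1, Fibcd1, Pou3f1 and Bok. For Wfs1 and Fibcd1 it lay farther from wild-type than the mean of the other 3, by -0.08 and -0.22 on the log2 scale. For Bok and Prox1 it lay nearer to wild-type, by -0.29 and 0.16. For Cpne4 and Elavl2 it fell inside the wild-type range. The same library differed from the others in a trend on transcript length. The Spearman correlation across 14186 genes between the difference from the wild-type mean and the length of the longest transcript was -0.10 in Mbd2-/- replicate 4, against -0.48, -0.43 and -0.48 in replicates 1 to 3 and -0.07 to 0.06 in wild-type libraries (genes are not independent). The longest transcripts of the markers run from 1432 bases in Bok and 1997 in C1ql2, the pair with the highest fold changes, to 9538 in Dsp, with a median of 3952 beside 3187 over all tested genes. Once every library was corrected for this trend, Bok kept its call at 0.34 (adjusted p = 8.11e-04, limma), Wfs1 at -0.29 (5.84e-04), Fibcd1 at -0.22 (0.0201) and Prox1 at -0.16 (0.0484). C1ql2 moved to 0.07 and was not called (adjusted p = 0.469, limma), and Dsp moved from -0.04 to 0.09, also not called (0.182). The markers that shifted most were thus Bok and C1ql2, with the shortest transcripts, and Dsp, with the longest, and the part of this trend in the results was not tested further.

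**Figure D3:**
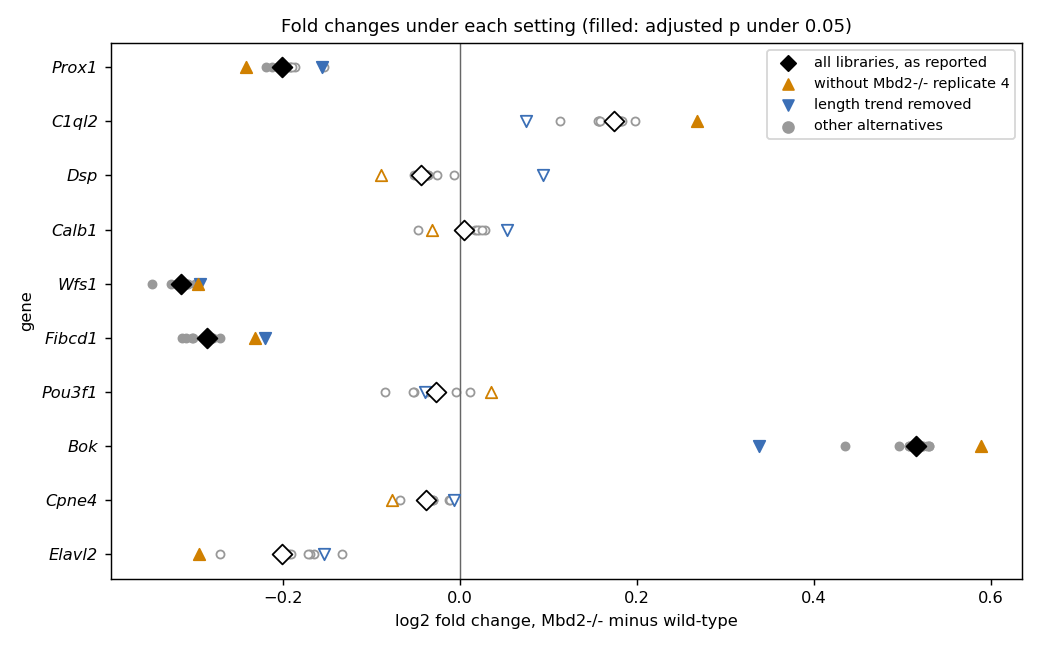
Log2 fold change of each marker (horizontal axis, Mbd2-/- minus wild-type) under the reported setting (black diamonds), without Mbd2-/- replicate 4 (orange), with the transcript length trend removed (blue) and under the other alternatives (grey), filled where the adjusted p was under 0.05. Bok, Wfs1 and Fibcd1 are filled throughout, whereas C1ql2 is filled only without Mbd2-/- replicate 4.

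Wider panels of genes for the same subfields, for CA2 and for immature dentate neurons were then compared. Of 38 panel genes 38 were tested, and 5 were called higher and 4 lower, which is 9 of 38 beside the background of 22.0%. Without Mbd2-/- replicate 4 the numbers were 10 higher and 10 lower, when 35.5% of all tested genes were called, and without wild-type replicate 1 they were 3 and 3, when 14.5% were. The median log2 fold change of the panels was -0.01. In the dentate panel 4 of 10 genes were higher and 0 lower, with 6 not called. By limma, Trpc6, a cation channel gene, went from 676 ± 20.1 to 821 ± 31.6 normalized counts (SD, n = 4, adjusted p = 0.00298), a log2 fold change of 0.28. The others were the zinc-finger factor Glis3 (0.26), the tryptophan dioxygenase Tdo2 (0.50) and the polo-like kinase Plk5 (0.35), whose call was lost without wild-type replicate 1 (adjusted p = 0.0512, limma) and with plain moderation, that is with no mean-variance trend and no robust step (0.0578). The genes of this panel with the most normalized counts, Dock10 at -0.11 and Stxbp6 at -0.13, were not called, and neither was the C1ql2 relative C1ql3 at 0.01. Without Mbd2-/- replicate 4 both Dock10 (-0.16, adjusted p = 0.00879, limma) and Stxbp6 (-0.21, 0.00392) were called lower.
The CA1 panel was mixed as well. Gpr161, an orphan receptor of the primary cilium, had 1103, 1101, 1120.4 and 1096 counts in wild-type and 759, 842, 840.0 and 879 in Mbd2-/- libraries, a fall in every Mbd2-/- library below the wild-type range. Its log2 fold change was -0.41 with a standard error of 0.06 (adjusted p = 2.12e-04, limma). Nov, a secreted matricellular protein, was lower at -0.23 (adjusted p = 0.0157, limma), and Spink8, a protease inhibitor of the Kazal type, was higher at 0.31 (0.0179). The Nov call was lost without wild-type replicate 1 (adjusted p = 0.0630, limma), wild-type replicate 4 (0.0537) or Mbd2-/- replicate 1 (0.0526), and with plain moderation (0.0548). The Spink8 call was lost without wild-type replicate 1 (adjusted p = 0.0605, limma), wild-type replicate 3 (0.0543) or Mbd2-/- replicate 1 (0.0648), and its log2 fold change was 0.01 once the length trend was taken out. The other 4 genes were not called, among them Mpped1, with the most normalized counts, whose log2 fold change was 0.002. Man1a was among them and was called lower without Mbd2-/- replicate 4 (-0.20, adjusted p = 0.0105, limma).
In the CA3 panel 0 of 8 genes were called by limma on all 8 libraries without a block, and 0 by DESeq2 or edgeR, while 3 had an unadjusted p under 0.05, 2 of them higher and 1 lower. Without Mbd2-/- replicate 4, 2 were called higher and 1 lower, beside the 35.5% of all tested genes called in that setting. Nnat at 0.17 and Grik4, a kainate receptor subunit, at -0.11 had the most normalized counts, and the range of the 8 fold changes was from -0.23 in Nectin3 to 0.32 in Iyd. Of the CA3 genes examined only Bok was called as reported, and with the replicate number as a block Elavl2 was called as well, as was Nectin3 of the panel (adjusted p = 0.0454, limma). In the CA2 panel 1 of 7 genes was called, Cacng5, an auxiliary subunit of AMPA receptors, at -0.41 (adjusted p = 0.00167, limma), with 291 ± 14.1 counts falling to 220 ± 12.6 (SD, n = 4), and Rgs14 and Pcp4 at 0.13 and 0.15 were not. Without Mbd2-/- replicate 4, 3 of the 7 were called higher, Rgs14 and Pcp4 among them, and 2 lower. Amigo2 stood at -0.23 over all libraries and was not called (adjusted p = 0.0579, limma). It was called lower without Mbd2-/- replicate 4 and also with the length trend removed. Of 6 genes of immature dentate neurons only Calb2 was called, with 557 ± 35.1 counts in the wild-type group and 380.0 ± 45.0 in the Mbd2-/- group (SD, n = 4). Its log2 fold change was -0.56 (adjusted p = 3.13e-04, limma). Calb2 encodes calretinin, which is also made by mossy cells, by interneurons and in the thalamus. Dcx at -0.07, Sox11 at -0.07 and Neurod1 at 0.10 were not called. Without Mbd2-/- replicate 4 Sox11 was called lower at -0.18 (adjusted p = 0.0269, limma), and Dcx stood at -0.19 and Neurod1 at 3.9e-05, both not called.

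**Figure D4:**
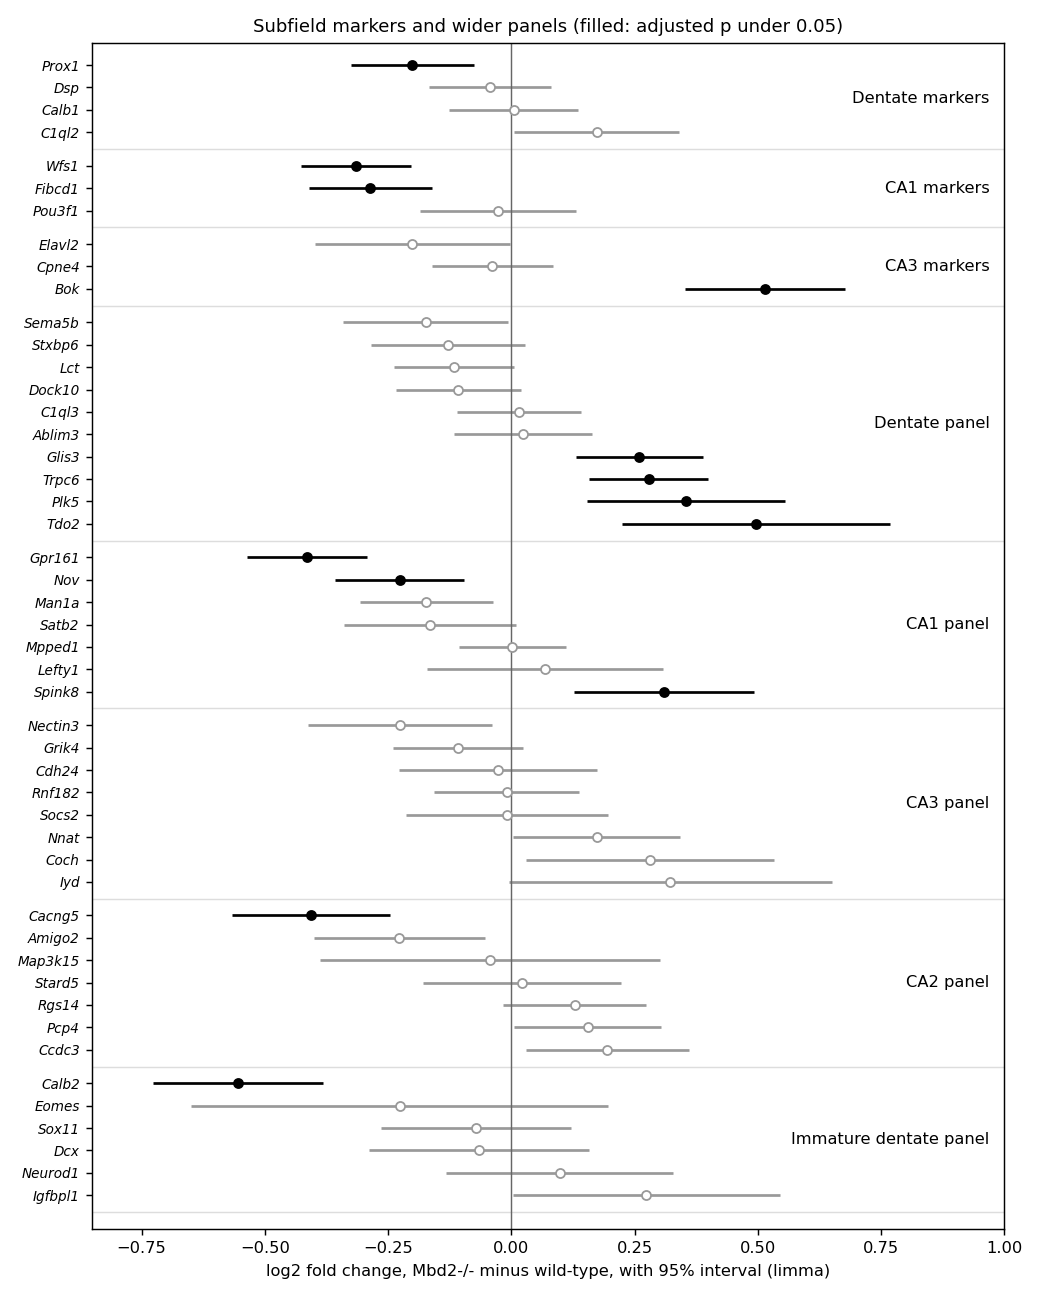
Log2 fold change with its 95% interval from limma for the 10 markers and the 38 genes of the wider panels, with filled black points for an adjusted p under 0.05 and open grey points otherwise. Called genes stand beside genes that were not called in every group except the CA3 panel, where 0 of 8 were called.

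Markers of neighbouring tissue and of other cell types were counted in the same way, to be read against the 12.0% of all tested genes called higher and the 10.0% called lower. Of 17 choroid plexus markers 17 were higher, with a summed level of 24533 to 26260 normalized counts in wild-type and 47511 to 53853 in Mbd2-/- libraries. Of 12 thalamus markers 10 were lower and 0 higher, with sums of 5650.1 to 5833 and 3774 to 4428 and a median log2 fold change of -0.51. The 4 excitatory neuron markers summed to 96259 to 98342 in wild-type and 106124 to 113480 in Mbd2-/- libraries, with 1 called higher and 0 lower. Camk2a carried that sum, with 68037 counts in wild-type and 81908 in Mbd2-/- libraries, and Slc17a7 and Neurod6 had negative fold changes. The 3 inhibitory neuron markers summed to 6787 to 7030.1 and 5712 to 6085 with 2 called lower. All 4 oligodendrocyte markers were higher, as were 3 of 4 astrocyte markers, 2 of 4 microglia markers and 1 of 3 endothelial markers. The pan-neuronal markers had 1 of 4 lower, the neocortical markers 2 of 6 lower, and the striatal markers 1 higher and 1 lower of 6 tested. No marker of these lists was at 0 in all libraries. It is not stated whether these lists were chosen before results of these data were known, so their counts are only descriptive. The part of these tissues and cell types in the results for the subfield markers was not tested.

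The genes whose pattern over the 8 libraries was closest to each subfield's mean profile were identified by the root mean square difference of mean-centred log2 values. For the CA1 markers these were Unc5a, Cnnm1 and Kdm4b, at 0.0266, 0.0278 and 0.0301, against a median of 0.196 over all other tested genes. Their log2 fold changes were -0.20, -0.23 and -0.22, a direction that the choice by this profile fixes. For the dentate markers they were Pmpca, Ntrk2 and Tnpo2 at 0.0143 to 0.0202, and for the CA3 markers Ank, Btbd1 and Ghitm at 0.0250 to 0.0277, none of them called. The CA3 profile averages Bok with 2 genes that did not rise, and Bok at 0.257 and Elavl2 at 0.188 lay farther from it than the median gene at 0.160. C1ql2, at 0.169, likewise lay farther from the dentate profile than the median gene at 0.147.

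The libraries held between 8087750 and 23790825 reads on genes, and each marker rested on 409 to 4059 reads per library. Counting alone would give a coefficient of variation of 2.08% to 3.47% for the markers in wild-type and of 2.60% to 4.03% in Mbd2-/- libraries (counting error only, since reads are not independent molecules). The measured spread was 0.964% to 9.82% in wild-type, below the counting error in Prox1, Dsp and Wfs1, and 4.81% to 14.8% in Mbd2-/- libraries, above it in all 10 markers. In the check of the genotype, Mbd2 had 295, 363, 371 and 354 normalized counts in wild-type and 244, 239.6, 339 and 217 in Mbd2-/- libraries (log2 fold change -0.43, adjusted p = 0.0174, limma), with Mbd2-/- replicate 3 inside the wild-type range. This call was lost without wild-type replicate 3 (adjusted p = 0.0625, limma), Mbd2-/- replicate 1 (0.0542) or Mbd2-/- replicate 2 (0.0579), and without the mean-variance trend and robust moderation (0.0731).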

How the data were processed

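Hippocampal RNA-seq libraries (4 wild-type, 4 Mbd2-/-) were grouped by sample title. Before deposit the authors deduplicated the reads, mapped them to mm9 by STAR and ran DESeq2. The counting tool, the gene annotation and the versions are not given in the sources used here. The signal values deposited by the authors are normalized counts (reads per gene over the size factor of its library), and 100% of values were whole multiples of 1 read to within 0.01. The deposited fold changes, standard errors, statistics and p-values of the authors' comparison were not used.

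Genes with a mean of at least 10 (14504) entered limma 3.58.1 (R 4.3.3, mean-variance trend, robust) as log2 of the normalized count plus 1, and a call needed an adjusted p (Benjamini-Hochberg) below 0.05. Fold changes are on that scale, and intervals are limma's own. Exact two-sided permutation tests of single genes were run with Python 3.11.15 and scipy 1.17.1. No text states that pools were separate litters, so p-values measure the spread between these libraries. Coordinates and transcript lengths came from GENCODE vM1 (mm9), where 94.3% of symbols were found. Nov and Nectin3 are named as in the table. The scripts were tested on simulated data.

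The markers and panels were chosen with earlier results of these data known. Genes named are the 10 markers, Mbd2, the called and the 2 most expressed genes of each panel, and the 3 genes nearest to each subfield profile. Genes named outside this rule (C1ql3, Nectin3, Iyd, Amigo2, Dcx, Neurod1, Man1a, Camk2a, Slc17a7 and Neurod6) were chosen after their values were seen. Alternatives were DESeq2 1.42.0 and edgeR 4.0.16 on the recovered reads, other scalings, pseudocounts and filters, plain moderation, a replicate block, removal of the length trend, and each library left out.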

Additional observations from a re-analysis of the deposited data

Results flagged for a closer look

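In groups of 4 libraries, the gap between the lowest or highest value and its neighbour was compared with the range of the group for the 10 markers and Mbd2, 22 groups in all, and chance gives about 1 such gap in 20 groups. Calb1 was low in wild-type replicate 3, with 1172 normalized counts beside 1338 to 1369.9 in the other wild-type libraries (gap over range 0.841). Fibcd1 was low in Mbd2-/- replicate 4, with 1555 normalized counts beside 1798 to 1829 in the other Mbd2-/- libraries (gap over range 0.887).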

How the results depend on the processing

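Bok, Wfs1 and Fibcd1 kept their direction and their call in all 18 alternatives, with log2 fold changes from 0.34 to 0.59, from -0.35 to -0.29 and from -0.31 to -0.22. Prox1 kept its direction in 18 and its call in 12. With 1 library left out, the number of markers called was 1 to 2 higher and 2 to 4 lower, where the highest numbers are without Mbd2-/- replicate 4, and the panels had 3 to 10 called higher and 3 to 10 lower. Over all genes it was 2068 without wild-type replicate 3 to 5155 without Mbd2-/- replicate 4. Removal of the length trend lowered the number of calls over all genes from 3185 to 2103, and the cause was not tested. The labels do not say whether replicate numbers pair the samples. Same-numbered libraries deviated from their group means with correlations of -0.10, -0.06, 0.07 and 0.04. Other differences between libraries, such as the length trend, also enter these values, so they cannot settle the pairing. With the replicate block, 3192 genes were called and Elavl2 was the only marker whose call changed. The permutation test was repeated for both pseudocounts and without the length trend only, where Dsp reached p = 0.0286 (exact, two-sided). DESeq2 called 2988 genes, edgeR 3231, and both called the same 4 markers as limma. The sign of the fold change differed in some alternatives only in Dsp, Calb1 and Pou3f1, none of them called in any. With 4 libraries a genotype the 95% intervals still allowed log2 fold changes of up to 0.34 in C1ql2 and down to -0.40 in Elavl2, neither of them called.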
